A study of Mus musculus with 10 samples.

Results

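The data describe 10 transcription factors that give the lens its identity, Pax6, Six3, Sox2, Sox1, Foxe3, Pitx3, Maf, Prox1, Gata3 and Hsf4, across RNA-seq libraries of mouse lens epithelium. The genes were chosen by symbol for their known roles in the lens, and all 10 were among the 50763 genes of the count table. Pooled epithelia from mice 3 weeks of age were sequenced, with 3 libraries from wild-type (WT) mice, 3 from the transgenic line OVE853 and 4 from the transgenic line OVE918. All mice were of the FVB/N background. Both lines carry a secreted, constitutively active human TGF-β1 under control of the αA-crystallin promoter, which is specific to the lens, and the lines are independent of each other. A pool held lenses of up to 9 mice in WT and OVE853 and up to 7 mice in OVE918, so the spread between libraries is a spread between pools of males and females and not between single mice. The comparisons ask how each line differed from WT and how the lines differed from each other.

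The lens forms from surface ectoderm that PAX6, SIX3 and SOX2 make competent to become lens. FOXE3 and PITX3 then keep the anterior epithelium in a dividing, undifferentiated state, while MAF, PROX1, SOX1, GATA3 and HSF4 act mainly as epithelial cells leave the cell cycle, elongate and fill with crystallins. TGF-β is known to drive lens epithelial cells towards a myofibroblast-like state, the change seen in anterior subcapsular cataract.

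Assigned read pairs per library ranged from 24073311 to 28645174 in WT, from 27409730 to 31908525 in OVE853 and from 25342220 to 28562553 in OVE918. As a check of the labels, Tgfb1 in CPM (counts scaled to library size) spanned 50.6 to 61.7 in the WT libraries, 339 to 361 in those of OVE853 and 715 to 881 in those of OVE918, with no attempt to separate reads of the human transgene. Of the 7 lens epithelium markers, all 7 were tested, and Gja1 and Cdh1 were reduced in each line (FDR limit 0.05), while the other 5 did not pass. Of all genes tested, 7.69% were reduced in OVE853 and 11% in OVE918. Log2 fold changes of the 7 were positive for 3 and negative for 4 in OVE853, and positive for 1 and negative for 6 in OVE918. Their sum, most of it Cryaa, ranged from 154397 to 159587 CPM in WT, from 104650 to 119123 in OVE853 and from 128934 to 196131 in OVE918. Gja1 passed in all 20 fits, and Cdh1 in 17 of 20 in OVE853 and 13 of 20 in OVE918, with adjusted p up to 0.0942 without OVE853 replicate 3 and up to 0.116 without WT replicate 2. WT replicate 3 was the highest WT library for all 10 retinal neuron markers and all 7 Müller glia markers. The summed retinal neuron markers ranged from 105 to 670 CPM in WT, with the highest value in replicate 3, from 28.2 to 60.0 in OVE853 and from 22.8 to 102 in OVE918. Corneal markers were also higher in WT, with sums from 237 to 1619 CPM against 62.8 to 93.3 in OVE853 and 26.6 to 82.0 in OVE918. Of the corneal markers, Krt12 was at 0 in both lines and Kera at 0 in all libraries. Calb2 of the retinal neuron list and Aldh3a1 of the corneal list are among the genes the paper lists as most reduced. Such results were known when the lists were made.

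All 10 factors were well above the detection limit. Each reached 2 FPKM, a level per exon length and library size, in at least 5 of the 10 libraries, as did 11094 genes in all. In WT, levels per exon length ran from 728 ± 210 FPKM for Foxe3 (SD, n = 3) to 2.79 ± 1.22 FPKM for Gata3. The exon model used for Foxe3 spans 867 bases, and with the 1625 bases of its RefSeq transcript the WT level was 389 ± 112 FPKM, which was still the highest of the 10. Pitx3 followed at 88.0 ± 10.4 FPKM, Maf at 58.6 ± 16.1 and Pax6 at 52.1 ± 1.99. Prox1 stood at 50.4 ± 14.5 FPKM, Sox2 at 35.8 ± 1.02, Six3 at 31.6 ± 0.419, Hsf4 at 23.2 ± 7.52 and Sox1 at 16.0 ± 5.48. Ranges of the WT libraries overlapped between Maf and Pax6, Pax6 and Prox1, Prox1 and Sox2, Six3 and Hsf4, and Hsf4 and Sox1. Within each WT library Prox1 still exceeded Sox2 and Hsf4 exceeded Sox1, while the order of the other pairs changed between libraries. Differences between these neighbours were not tested.

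Across the factors, the shift against WT was small in most and without a shared direction. Against WT, OVE853 had 2 reduced factors, Six3 and Sox2, and no elevated one at an FDR of at most 0.05 (edgeR quasi-likelihood test, Benjamini-Hochberg adjustment). Of all genes tested 15.8% passed in that comparison, 7.69% lower and 8.1% higher. OVE918 had the same pair reduced and Hsf4 elevated, where 19% of all genes passed, 11% lower and 8% higher. Only Hsf4 in OVE918 also met a 2-fold change, the criterion for a differentially expressed gene (DEG), which 5.6% of genes met in that comparison and 4.43% in OVE853. Reduced in both lines were 2 of the 10 factors and 5.37% of all genes. The median log2 fold change of the 10 factors was 0.14 in OVE853 and 0.23 in OVE918, beside medians of -0.01 and 0.01 over all genes tested. Without WT replicate 3 these medians were -0.01 and -0.02, so the positive medians rested on that library. In pooled tissue, fewer cells of a type and less RNA per cell cannot be told apart.

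**Figure D1:**
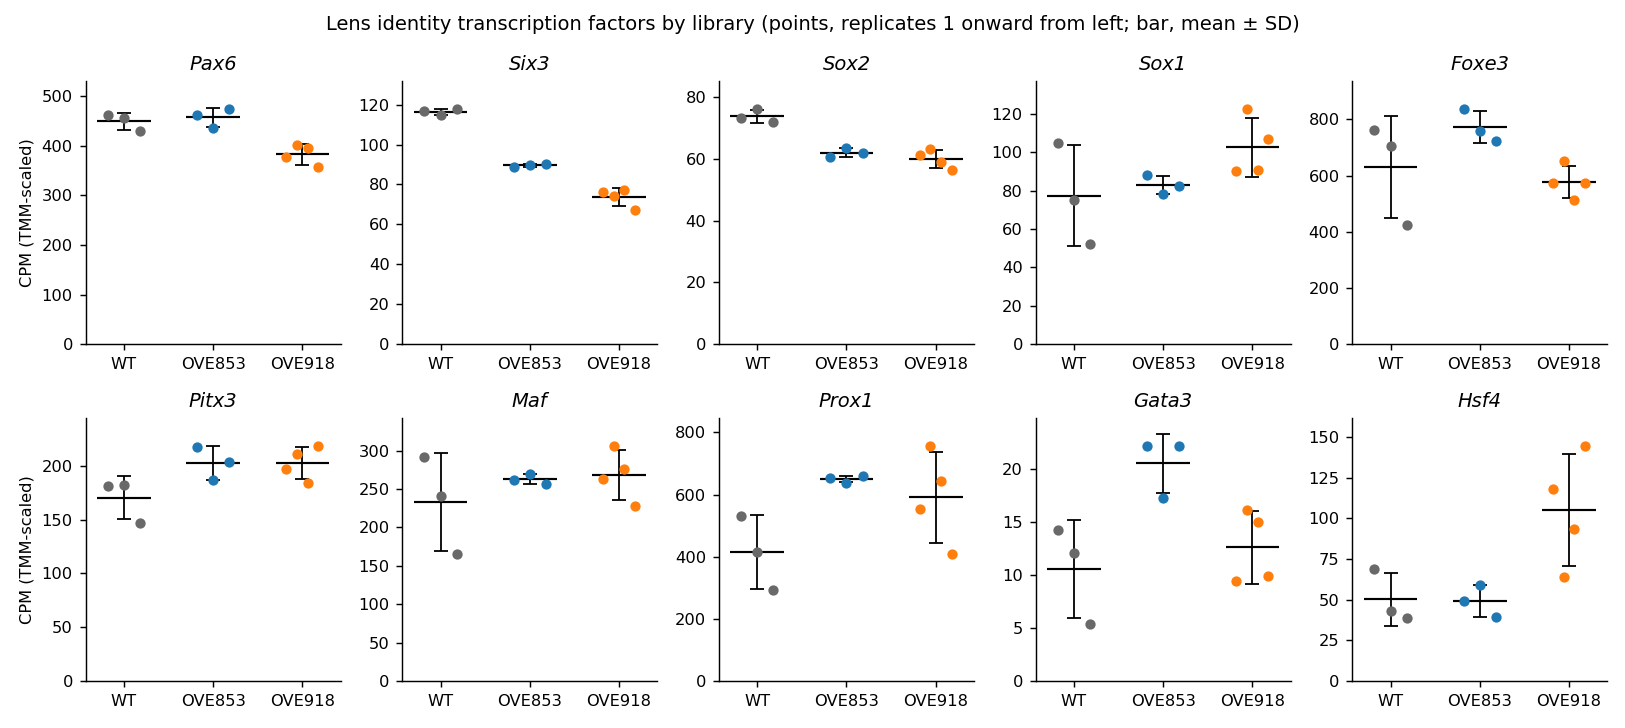
CPM of each factor (vertical axis, TMM-scaled, starting at 0) in the WT, OVE853 and OVE918 libraries, 1 point per library with the group mean and SD. Six3 and Sox2 lay lower in every transgenic library than in every WT library, and the third WT point was the lowest WT point for 9 of the 10 factors.

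Six3 and Sox2 were the members reduced in both lines, and for that reason the 250 bases before their transcription starts are shown. The sequences come from RefSeq on GRCm38.p6, an earlier build than the GRCm39 of the count table, and are written 5′ to 3′ on the plus strand, which is the strand of both genes. Windows were found for 8 of the 10 factors, some with more than 1 start, giving 10 windows. Capitals mark CCAAT boxes (CCAAT or its reverse complement ATTGG) and, in Sox2, also GC boxes (GGGCGG or CCGCCC).
Six3, chr17:85620584-85620833: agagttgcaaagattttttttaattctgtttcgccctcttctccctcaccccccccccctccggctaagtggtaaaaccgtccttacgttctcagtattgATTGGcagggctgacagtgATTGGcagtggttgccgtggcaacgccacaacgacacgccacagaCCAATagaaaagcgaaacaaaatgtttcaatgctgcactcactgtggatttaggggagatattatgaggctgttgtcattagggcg
Sox2, chr3:34649745-34649994: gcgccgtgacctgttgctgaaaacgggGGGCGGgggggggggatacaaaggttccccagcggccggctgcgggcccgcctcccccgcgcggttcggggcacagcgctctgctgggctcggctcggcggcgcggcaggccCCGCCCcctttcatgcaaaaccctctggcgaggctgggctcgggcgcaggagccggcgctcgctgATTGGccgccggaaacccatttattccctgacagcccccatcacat
The Six3 window held 3 CCAAT boxes and no GC box, and the Sox2 window held 1 CCAAT box and 2 GC boxes. Counted on both strands, CCAAT occurred in 4 of the 10 windows and in 33.8% of the 32851 promoter windows of the same length, and GGGCGG in 6 of the 10 and in 32.7%. None of the 10 windows held the SMAD palindrome GTCTAGAC, the CAGA box AGCCAGAC or the E-box CACCTG, which 0.167%, 1.05% and 17.2% of all windows held. A match in these letters is a description and not a binding site.

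Six3, a homeodomain factor of the optic field that activates Pax6 and Sox2 in the presumptive lens ectoderm, gave the most even values of the 10 in WT and in OVE853. It measured 117, 115 and 118 CPM in the WT libraries, 88.8, 90.0 and 90.0 in OVE853, and 76.1, 74.4, 77.1 and 67.1 in OVE918. All 3 groups were separate, with WT highest and OVE918 lowest. Six3 fell by 0.38 on the log2 scale in OVE853 (SE 0.08, adjusted p = 0.00959, edgeR quasi-likelihood test) and by 0.66 in OVE918 (SE 0.07, adjusted p = 0.000123). Between the lines the difference was -0.28 (95% interval -0.44 to -0.12) with an adjusted p of 0.0778, which missed the threshold although the libraries of the lines did not overlap. DESeq2 put that difference at -0.27 with an adjusted p of 0.0065. WT replicate 3 stood at 102% of the mean of WT replicates 1 and 2. Both reductions passed an FDR of 0.05 in all 20 fits run, among them those that left out each library.

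Sox2, an HMG-box factor that partners PAX6 on the δ-crystallin enhancer of birds and on other lens enhancers, measured 73.1, 76.0 and 72.0 CPM in WT. OVE853 had 60.4, 63.4 and 61.9 CPM, and OVE918 had 61.2, 63.1, 59.0 and 56.3. Every transgenic library lay below every WT library, and the lines overlapped each other. Sox2 fell by 0.25 in OVE853 (SE 0.08, adjusted p = 0.0477) and by 0.30 in OVE918 (SE 0.07, adjusted p = 0.0137). The call in OVE853 was narrow, and it was past the threshold in 8 of 20 fits, with adjusted p from 0.00662 to 0.176 in edgeR and DESeq2. Leaving out any 1 library other than OVE918 replicate 4 ended it, at adjusted p from 0.0525 to 0.149, with the log2 fold change between -0.27 and -0.23. In OVE918 the call was lost only without WT replicate 2 (-0.28, adjusted p = 0.0559), in a fit of the compared groups alone (adjusted p = 0.0565) and without a filter on low counts (adjusted p = 0.0875).

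Pax6, the paired-domain factor at the top of eye development, was nearly level between OVE853 and WT. Its libraries measured 463, 455 and 430.0 CPM in WT, 462, 435 and 473 in OVE853, and 376, 402, 395 and 356 in OVE918. The OVE918 libraries lay below all others, while WT and OVE853 overlapped. The log2 fold change was 0.02 in OVE853 (95% interval -0.18 to 0.22, adjusted p = 0.870) and -0.23 in OVE918 (95% interval -0.42 to -0.05, adjusted p = 0.0799), and neither passed. OVE918 against OVE853 gave -0.26 with an adjusted p of 0.127, and DESeq2 gave -0.23 against WT (adjusted p = 0.0114) and -0.24 between the lines (adjusted p = 0.0162). Not overlapping with WT were 5 of the 10 factors in OVE853 and 4 in OVE918, where 45.4% and 27.2% of all genes were also apart.

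Of the SOXB1 proteins, the closely related SOX1, SOX2 and SOX3, Sox1 acts in fiber cells, where it is needed for γ-crystallin expression. Sox1 measured 105, 74.9 and 52.4 CPM in WT, 88.0, 78.3 and 82.7 in OVE853, and 90.4, 123, 90.7 and 107 in OVE918. All OVE853 values lay inside the WT range, and OVE918 overlapped WT and lay above OVE853 in every library. The log2 fold change was 0.10 in OVE853 (adjusted p = 0.759) and 0.41 in OVE918 (adjusted p = 0.183). Without WT replicate 1 the value in OVE918 was 0.69 with an adjusted p of 0.0156. It passed in 1 of the 10 edgeR fits without 1 library. Over those fits it ranged from 0.19 to 0.69, with adjusted p up to 0.493.

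Sox3, a paralog from a list of relatives of the factors, was the exception in this family in the size of its change. It measured 1.21, 1.31 and 0.631 CPM in WT, 6.71, 5.08 and 5.14 in OVE853, and 5.57, 5.21, 4.50 and 7.29 in OVE918. Every transgenic library exceeded every WT library. Sox3 met the FPKM minimum for testing through the transgenic libraries alone, and in each line it passed in all 20 fits. Sox3 was elevated 5.41-fold in OVE853 (log2 fold change 2.44, SE 0.29, adjusted p = 0.000338) and 5.40-fold in OVE918 (2.43, SE 0.28, adjusted p = 0.000161). Per exon length, the sum of Sox1, Sox2 and Sox3 was 52.4 ± 5.91 FPKM in WT (n = 3), 50.0 ± 0.734 in OVE853 (n = 3) and 53.1 ± 3.89 in OVE918 (n = 4). Within that sum Sox2 made up 69.0 ± 7.24% in WT, 60.2 ± 2.26% in OVE853 and 55.0 ± 3.48% in OVE918, while Sox3 made up 0.955 ± 0.269%, 5.45 ± 0.807% and 5.16 ± 1.09%.

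**Figure D2:**
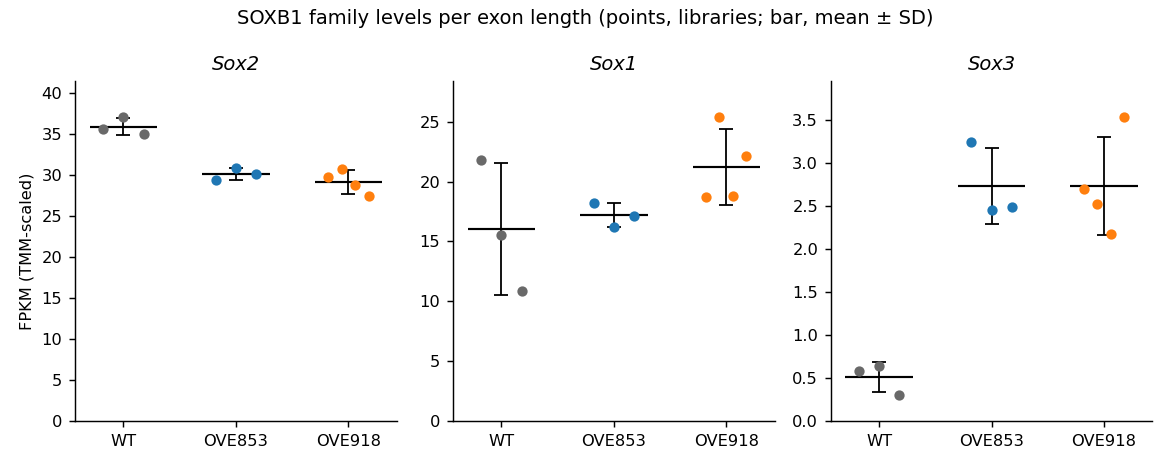
FPKM of Sox2, Sox1 and Sox3 (vertical axes, each with its own scale from 0) in the WT, OVE853 and OVE918 libraries, 1 point per library with mean and SD. Sox2 was lower and Sox3 higher in every transgenic library than in every WT library, with Sox3 below 0.7 FPKM in WT and between 2.18 and 3.53 FPKM in the lines.

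Foxe3, the forkhead factor that keeps epithelial cells proliferating and intact, and Pitx3, a homeodomain factor upstream of Foxe3, did not pass in any comparison. Foxe3 measured 763, 706 and 424 CPM in WT, 836, 759 and 724 in OVE853, and 575, 651, 513 and 573 in OVE918. WT spanned the OVE918 values, and OVE918 lay below OVE853 in all libraries. Its log2 fold change was 0.29 in OVE853 (95% interval -0.13 to 0.71, adjusted p = 0.298) and -0.13 in OVE918 (95% interval -0.52 to 0.26, adjusted p = 0.664). OVE918 against OVE853 gave -0.42 with an adjusted p of 0.193, and 0.0466 once WT replicate 3 was left out of the fit. Pitx3 measured 181, 183 and 147 CPM in WT, 218, 187 and 204 in OVE853, and 197, 211, 184 and 219 in OVE918. Both lines lay above WT by a narrow margin. The log2 fold change was 0.25 in OVE853 (adjusted p = 0.144) and 0.25 in OVE918 (adjusted p = 0.127).

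Maf, a bZIP activator of crystallin genes, was alike in its group means but wide in WT. It measured 292, 241 and 165 CPM in WT, 262, 269.8 and 257 in OVE853, and 264, 306, 276 and 228 in OVE918. The groups overlapped, and the log2 fold changes were 0.18 (95% interval -0.22 to 0.57) and 0.21 (95% interval -0.16 to 0.58), with adjusted p of 0.507 and 0.432. The Cryaa promoter, which is a target of MAF and drives transgenes such as the one in these lines, is shown with its MAF half-site TGCTGAC in capitals. The window is from RefSeq on GRCm38.p6, plus strand.
Cryaa, chr17:31677681-31677930: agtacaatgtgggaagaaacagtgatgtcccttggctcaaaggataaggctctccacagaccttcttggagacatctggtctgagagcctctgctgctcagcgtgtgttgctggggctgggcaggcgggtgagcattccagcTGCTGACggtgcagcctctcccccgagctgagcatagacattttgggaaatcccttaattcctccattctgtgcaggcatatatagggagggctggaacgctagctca
The half-site lay 108 to 102 bases before the start and occurred in 3.81% of all windows.

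Prox1, the homeodomain factor that drives fiber cells out of the cell cycle and into elongation, measured 532, 415 and 294 CPM in WT. OVE853 had 653, 638 and 659.7 CPM, and OVE918 had 554, 757, 644 and 409.7. OVE853 lay above WT in all libraries, and OVE918 overlapped WT through replicate 4. The log2 fold change was 0.65 in OVE853 (95% interval 0.14 to 1.17, adjusted p = 0.0813) and 0.51 in OVE918 (95% interval 0.03 to 1.00, adjusted p = 0.131). Without WT replicate 1 the values were 0.87 and 0.74, with adjusted p of 0.0271 and 0.0414. Without OVE918 replicate 4 they were 0.65 and 0.66, with adjusted p of 0.0397 and 0.0444. In each line Prox1 passed in 2 of the 10 edgeR fits without 1 library. Over those fits its values ranged from 0.46 to 0.87 in OVE853 and from 0.32 to 0.74 in OVE918. Adjusted p reached 0.218 and 0.365.

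Gata3, a zinc finger factor of cell cycle exit in fiber cells, was the least abundant of the 10 and the most variable in WT. It measured 14.2, 12.1 and 5.40 CPM in WT, 22.1, 17.3 and 22.2 in OVE853, and 9.38, 16.1, 15.0 and 9.92 in OVE918. The OVE853 libraries lay above all others, and OVE918 overlapped WT. The log2 fold change was 0.96 in OVE853 (SE 0.32, adjusted p = 0.0680), 0.26 in OVE918 (adjusted p = 0.597) and -0.70 between the lines (adjusted p = 0.196). Without WT replicate 1 the value in OVE853 was 1.23 with an adjusted p of 0.0330. It passed in 1 of the 10 edgeR fits without 1 library. Over those fits it ranged from 0.64 to 1.23, with adjusted p up to 0.179.

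**Figure D3:**
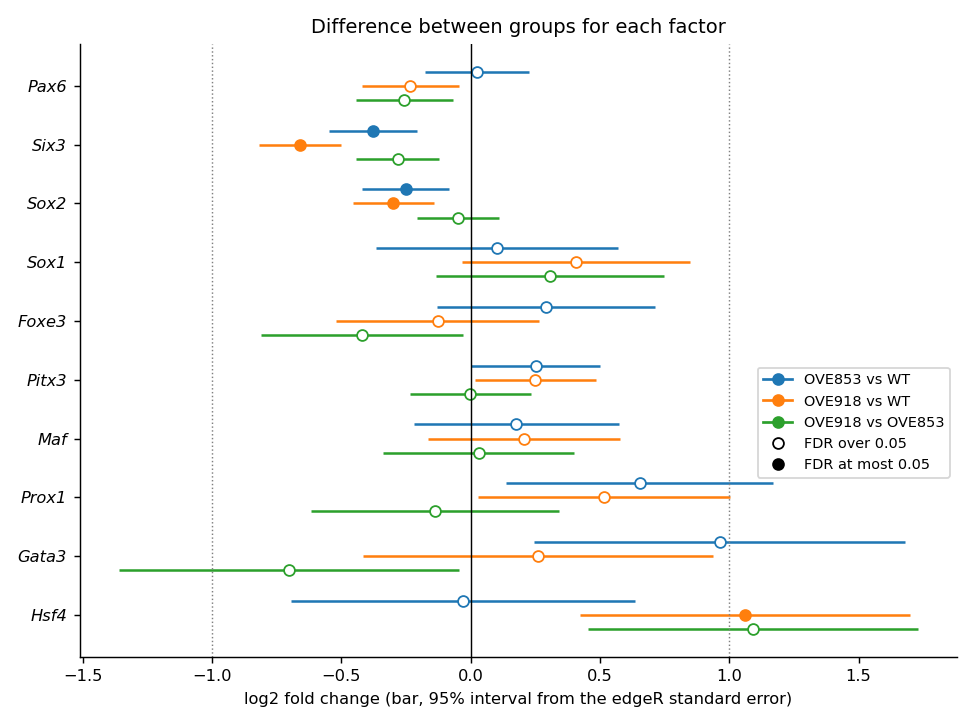
Log2 fold change of each factor with its 95% interval (horizontal axis) for OVE853 against WT, OVE918 against WT and OVE918 against OVE853; filled points had an FDR of at most 0.05, and dotted lines mark a 2-fold change. Six3 and Sox2 were filled below 0 in both lines, Hsf4 was filled above 0 in OVE918 alone, and no point was filled between the lines.

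Hsf4, a heat shock factor that acts in lens fiber cells on small heat shock protein, γ-crystallin and Dnase2b genes, was the only DEG among the factors. It measured 69.1, 43.0 and 39.0 CPM in WT, 49.3, 59.0 and 39.6 in OVE853, and 118, 64.1, 93.5 and 145 in OVE918. OVE918 replicate 2 lay inside the WT range and the other OVE918 libraries lay above it. Hsf4 was elevated 2.09-fold in OVE918 (log2 fold change 1.06, SE 0.29, adjusted p = 0.0276) and measured -0.03 in OVE853 (95% interval -0.70 to 0.64, adjusted p = 0.954). OVE918 against OVE853 gave 1.09 with an adjusted p of 0.0815, so the lines were not shown to differ, although DESeq2 gave 1.10 with an adjusted p of 0.00328 and leaving out OVE918 replicate 2 gave 1.27 with an adjusted p of 0.0366. The call against WT was lost without WT replicate 2 (0.96, adjusted p = 0.0935), without WT replicate 3 (0.91, adjusted p = 0.0914), without OVE918 replicate 1 (1.00, adjusted p = 0.0597) and without OVE918 replicate 4 (0.87, adjusted p = 0.0652).

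Crygd and Hspb1, genes active in fiber cells, are given by library beside Hsf4. Crygd, a γ-crystallin, measured 1475, 489 and 204 CPM in WT, 490.0, 6241 and 535 in OVE853, and 8472, 1474, 4781 and 9646 in OVE918. Hspb1, a small heat shock protein, measured 17.5, 17.1 and 36.2 CPM in WT, 15.0, 128 and 17.5 in OVE853, and 204, 18.1, 99.8 and 268 in OVE918. Both were high in the same OVE918 libraries in which Hsf4 was high, replicates 1, 3 and 4, and also in OVE853 replicate 2, where Hsf4 was at 59.0 CPM. WT replicate 1 had more Hsf4, at 69.1 CPM, with less Crygd and Hspb1 than that library, and WT replicate 3 had the lowest WT level of Hsf4 and the highest of Hspb1. The summed fiber markers ranged from 15759 to 27743 CPM in WT, from 16461 to 24228 in OVE853 and from 21207 to 33546 in OVE918. Of these markers 0 of the 8 tested passed in either line, where 15.8% of all genes tested passed in OVE853 and 19% in OVE918. In OVE918 all 8 had positive log2 fold changes against WT, with a median of 0.60 beside 0.01 over all genes. Without WT replicate 3 that median was 0.35. In OVE853 3 were positive and 5 negative, with a median of -0.13. The part of the fiber markers in the Hsf4 result was not tested. The Hspb1 promoter is shown for its heat shock elements, in capitals (GAANNTTC), in a RefSeq window on GRCm38.p6, plus strand.
Hspb1, chr5:135887669-135887918: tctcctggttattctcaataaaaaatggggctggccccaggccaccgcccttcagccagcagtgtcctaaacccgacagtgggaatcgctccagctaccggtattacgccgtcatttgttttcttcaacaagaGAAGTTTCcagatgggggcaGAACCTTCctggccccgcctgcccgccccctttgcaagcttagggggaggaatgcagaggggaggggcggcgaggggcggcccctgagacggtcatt
This window held 2 such elements, and 6.69% of all windows held at least 1. None of the 10 windows of the factors held one.

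**Figure D4:**
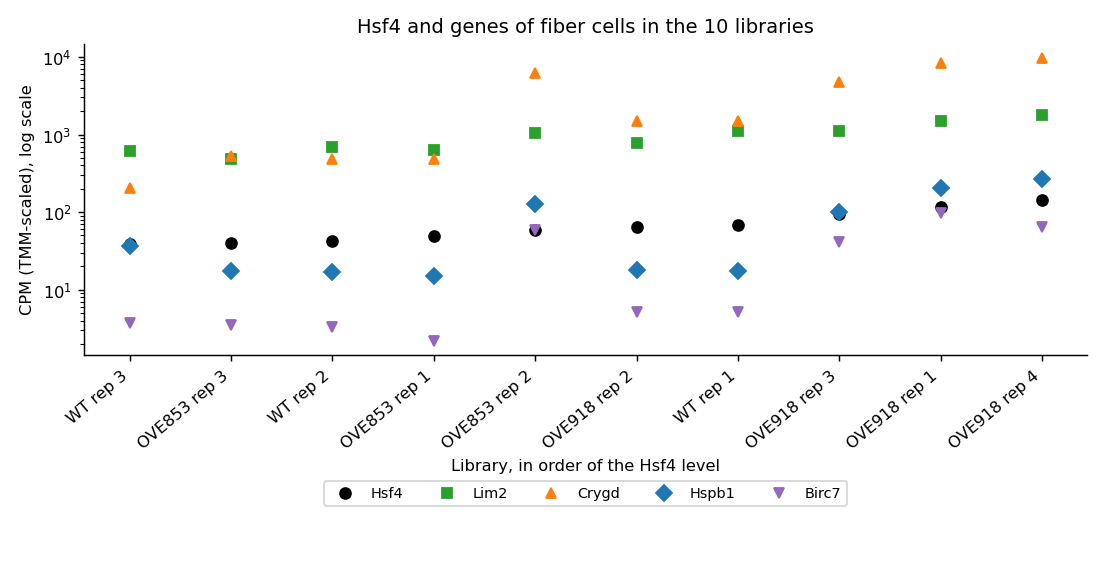
CPM on a log axis of Hsf4 and of Lim2, Crygd, Hspb1 and Birc7, genes of fiber cells, in the 10 libraries ordered by the Hsf4 level. The 3 libraries with the highest Hsf4 were OVE918 replicates 3, 1 and 4, and Crygd, Hspb1 and Birc7 were also high in OVE853 replicate 2.

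OVE918 was not shown to differ from OVE853 in any of the 10 factors. In edgeR 0 of 10 passed an FDR of 0.05, where 1.32% of all genes did. An unadjusted p under 0.05 was reached by 5 of the 10 and by 22.9% of all genes, and DESeq2 called 3, Pax6, Six3 and Hsf4, and 8.67% of all genes. Leaving out WT replicate 3 or OVE918 replicate 2 gave 1 call each, of Foxe3 and Hsf4. No factor was a DEG, as were 0.487% of genes. Libraries of the lines did not overlap for 6 of 10 factors, 2 higher and 4 lower in OVE918, beside 29.5% of all genes, 13.4% higher and 16.2% lower. Since both lines were set against the same 3 WT libraries, their comparisons with WT are not independent of each other.

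WT replicate 3 was the lowest WT library for 9 of the 10 factors, where 38.4% of all genes tested had their lowest WT value in it. As a share of the mean of WT replicates 1 and 2, it held 41.1% for Gata3, 57.7% for Foxe3, 58.2% for Sox1, 62.0% for Maf and 62.0% for Prox1. The share was 69.6% for Hsf4, 80.8% for Pitx3, 93.7% for Pax6, 96.5% for Sox2 and 102% for Six3. Six3 and Sox2, which passed in both lines, had the shares nearest to 100%. Without it, OVE853 had 1 factor at an FDR of at most 0.05 (Six3) and OVE918 had 2 (Six3 and Sox2).

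**Figure D5:**
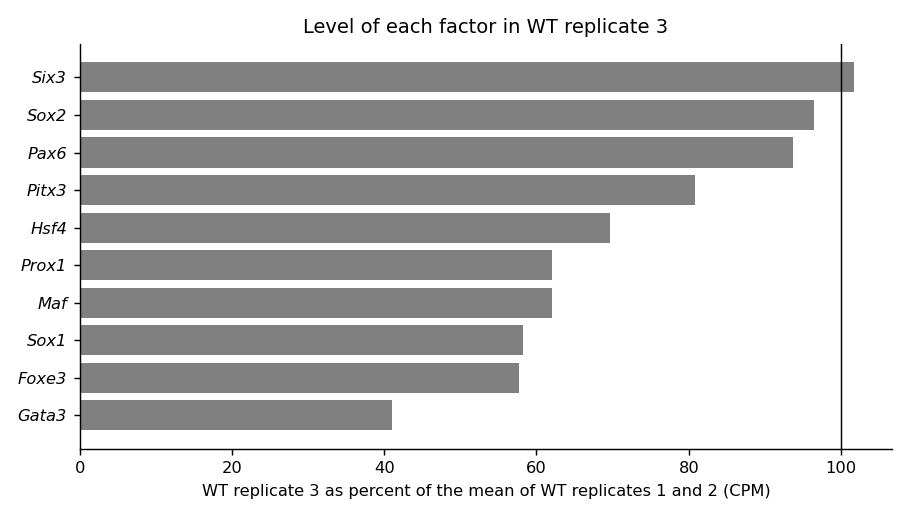
Level of each factor in WT replicate 3 as a percentage of the mean of WT replicates 1 and 2 (horizontal axis, bars from 0, vertical line at 100%). The bars run from 41.1% for Gata3 to 102% for Six3.

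Rax and Lhx2, among other regulators of the lens and eye field, changed more than any of the 10 factors. Of 29 listed regulators 24 were tested. Those that fell were 5 in OVE853 (Meis1, Meis2, Rarb, Lhx2 and Rax) and 5 in OVE918 (Meis1, Meis2, Eya1, Lhx2 and Rax). The median log2 fold change of the list was 0.18 in OVE853 and -0.04 in OVE918. In OVE853 2 regulators rose, among them Etv5, and in OVE918 0 rose. Of all genes tested, 7.69% fell and 8.1% rose in OVE853, and 11% fell and 8% rose in OVE918. Etv5, an ETS factor downstream of FGF signals, rose by 0.59 on the log2 scale in OVE853 (SE 0.13, adjusted p = 0.0157), a call lost without OVE853 replicate 1 (adjusted p = 0.0635) or 3 (adjusted p = 0.0695). Omitting WT replicate 3 gave 1 rise and 4 falls in OVE853 and 0 rises and 6 falls in OVE918. Meis1, Meis2, Etv5 and Rarb are named here although they were not DEGs, a choice made after their values were seen. Meis1 and Meis2, homeodomain factors that regulate Pax6, fell by 0.51 and 0.75 in OVE853 (adjusted p = 0.0166 and 0.00153) and by 0.98 and 0.83 in OVE918 (adjusted p = 0.000163 and 0.000284). The Meis1 call in OVE853 was lost without OVE853 replicate 1 (-0.46, adjusted p = 0.0700) or 3 (-0.51, adjusted p = 0.0578).

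Rax, a homeodomain factor of the eye field, measured 27.1, 21.0 and 37.8 CPM in WT, 13.8, 11.5 and 10.2 in OVE853, and 6.34, 3.32, 8.88 and 6.46 in OVE918. Lhx2, a LIM homeodomain factor of the optic vesicle, measured 23.9, 16.1 and 37.4 CPM in WT, 12.8, 9.60 and 9.29 in OVE853, and 7.75, 3.05, 5.76 and 6.18 in OVE918. For both, WT was highest and OVE918 lowest, and no groups overlapped. Rax fell by 1.27 and 2.20 on the log2 scale (adjusted p = 0.0198 and 0.000470) and Lhx2 by 1.29 and 2.19 (adjusted p = 0.0300 and 0.000970). In OVE853 the Lhx2 call was lost without WT replicate 3 (-0.92, adjusted p = 0.0830) and without any 1 OVE853 library, at adjusted p up to 0.111. The Rax call in OVE853 was lost without OVE853 replicate 2 (-1.25, adjusted p = 0.0679) or 3 (-1.18, adjusted p = 0.0825). Eya1, a phosphatase and coactivator of the retinal determination network, fell by 1.00 in OVE918 (SE 0.23, adjusted p = 0.0118).

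Genes listed as markers of Müller glia, the supporting cells of the retina, were lower in the lines than in WT. The paper places Apoe and Slc1a3 in groups of reduced genes, and it reports most of those genes as elevated in normal lens epithelium. It does not say whether Apoe and Slc1a3 are among those elevated. The share of Müller glia in the sum of these markers was not tested. The paper also lists Rlbp1 among its most reduced genes, which was known when the list was made. In OVE853 7.69% of all genes tested fell, and in OVE918 11%. Of 7 listed markers 6 were tested, and 6 fell in OVE853 and 5 in OVE918, or 4 and 3 without WT replicate 3. Their sum, most of it Dkk3, ranged from 4675 to 7862 CPM in WT, from 2764 to 3207 in OVE853 and from 2754 to 3445 in OVE918, so the transgenic libraries lay below WT for this sum as they did for Six3, Sox2, Rax and Lhx2. None of the 7 was at 0 in any library, and their part in the reduction of these factors was not tested. Sums of 10 photoreceptor markers, also of the retina, overlapped between the groups. They ranged from 14.8 to 75.7 CPM in WT, from 19.3 to 42.3 in OVE853 and from 28.7 to 58.6 in OVE918. Of these markers 2 were tested, and both were higher in each line without passing.

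The nonpigmented ciliary epithelium, which borders the lens, gave a mixed result. In OVE853 7.69% of all genes tested fell and 8.1% rose, and in OVE918 11% fell. Of 8 listed markers 5 were tested, of which 3 fell and 1 rose (Aqp1) in OVE853 and 4 fell in OVE918. The paper lists Slc6a13, Best2 and Wfdc1 among its most reduced genes. Such results were known when the list was made, so these counts are a description and not a test of this cell type. Slc6a13, a transporter, ranged from 39.9 to 76.9 CPM in WT, from 3.57 to 7.73 in OVE853 and from 1.19 to 3.34 in OVE918, and Best2, a channel, from 31.0 to 51.4, from 5.55 to 9.15 and from 0.884 to 3.98. The sum of the 8 markers, most of it Aqp1, ranged from 747 to 1045 CPM in WT, from 1236 to 1454 in OVE853 and from 783 to 951 in OVE918. None of the 8 was at 0 in a whole group, and their part in the reduction of the factors was not tested. Within WT, Rax and Lhx2 were highest in replicate 3, in which Six3 stood at 102% and Sox2 at 96.5% of the mean of the other WT libraries.

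Of 18 listed paralogs of the factors 5 met the FPKM minimum and were tested, and Sox3 rose in both lines while the other 4 did not pass. Over all genes tested, 8.1% rose in OVE853 and 8% in OVE918. Sox3 reached that minimum in transgenic libraries alone, and a gene above it only in the WT libraries could not be tested this way. With edgeR's filterByExpr 11 paralogs were tested among 18058 genes, and Six6 and Gata2 then fell in both lines and Nrl rose in OVE918. The share of all genes called in that fit is not given here. In the fit of 11094 genes 7.69% fell in OVE853 and 11% in OVE918. Six6, the closest relative of Six3 and a factor of the eye field, measured 17.2, 12.0 and 32.3 CPM in WT, 7.79, 7.75 and 6.16 in OVE853, and 5.91, 1.97, 4.42 and 3.37 in OVE918. Its log2 fold changes in that fit were -1.49 (SE 0.40, adjusted p = 0.0363) and -2.36 (SE 0.38, adjusted p = 0.00194), without overlap of any groups. Gata2, at 8 to 43 counts per WT library, gave -2.03 and -1.55 (adjusted p = 0.0318 and 0.0494), and Nrl gave 2.39 and 2.76 (adjusted p = 0.0594 and 0.0249). Six6, Gata2 and Nrl are named after their values were seen.

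Among 23 genes reported as targets of the factors 21 were tested and none was a DEG, with 1 rise in OVE853 (Fgfr1) and 1 rise (Dnajb1) and 1 fall (Fgfr2) in OVE918. Over all genes tested, 8.1% rose in OVE853, and 8% rose and 11% fell in OVE918. Omitting WT replicate 3 left 0 calls in OVE853 and 0 rises and 2 falls in OVE918. The Fgfr1 call held in 14 of 20 fits, with adjusted p up to 0.101 without OVE853 replicate 3, and the Fgfr2 call in 5 of 20, with adjusted p up to 0.178 without WT replicate 2. The largest fold changes in that list belonged to Crygd, at 1.75 in OVE853 and 3.08 in OVE918 on the log2 scale (adjusted p = 0.323 and 0.113), and to Hspb1, at 1.18 and 2.64 (adjusted p = 0.457 and 0.123). Without OVE853 replicate 2 the OVE853 values were -0.49 for Crygd and -0.54 for Hspb1. Dct, an enzyme of melanin synthesis, measured -0.65 and -0.26 (adjusted p = 0.530 and 0.819). Fgfr1, Fgfr2 and Dnajb1 are named after their values were seen.

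Noncoding RNAs at the loci of the factors were listed as well, and 6 of 8 were in the table and 5 were tested. Sox2ot, whose span covers Sox2 on the same strand, measured 131, 119 and 87.3 CPM in WT, 81.7, 81.9 and 69.0 in OVE853, and 68.1, 85.8, 67.2 and 65.1 in OVE918. Every transgenic library lay below every WT library. Sox2ot fell by 0.54 in OVE853 (adjusted p = 0.0422) and by 0.65 in OVE918 (adjusted p = 0.00979), and the call in OVE853 held in 10 of 20 fits and, without 1 library, ranged in adjusted p up to 0.151. OVE918 replicate 2 stood above the other 3 libraries of its line. Pax6os1, antisense to the start of Pax6, fell by 0.88 in OVE853 (adjusted p = 0.0352) and by 1.23 in OVE918 (adjusted p = 0.00379), where Pax6 itself did not pass. Without OVE853 replicate 2 the value in OVE853 was -0.83 with an adjusted p of 0.110. Pax6os1 met the FPKM minimum in only 5 of the 10 fits without 1 library. It missed that minimum without WT replicate 3, so its fall could not be checked there. WT replicate 3 held 160% of the mean of WT replicates 1 and 2. Six3os1, antisense to Six3, measured 0.40 and -0.24 with adjusted p of 0.243 and 0.491. Sox1ot and Prox1os did not pass either.

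Likeness was measured as the root mean square difference of log2 CPM profiles over the 10 libraries, each centred on its own mean, among 11094 genes. Nearest to Six3 were Sft2d2 at 0.0451, Slc19a1 at 0.0661 and Inpp5f at 0.0668, beside a profile of Six3 with a root mean square of 0.278. Nearest to Sox2 were Tmem135 at 0.0414, Rbbp9 at 0.0421 and Gstz1 at 0.0527, beside 0.137 for Sox2 itself. Nearest to Hsf4 were Pdlim1 at 0.140, the fiber membrane gene Lim2 at 0.208 and Cd24a at 0.213, beside 0.627 for Hsf4. Among the factors themselves, the profile nearest to Six3 was that of Sox2 at 0.161, and that of Sox2 was nearest to Pax6 at 0.124. Maf was the nearest factor to Foxe3, Sox1, Prox1 and Pitx3, at 0.227, 0.190, 0.220 and 0.186. These are descriptions over libraries that share their groups.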

How the data were processed

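Per the labels and the study's methods, the authors used Cutadapt 5.2 for trimming and STAR 2.7.11b for alignment to GRCm39, and deposited raw counts of read pairs per gene, summarized with featureCounts 2.0.8 for reverse-stranded libraries on RefSeq annotation. The deposited counts are not normalized. From them, TMM-scaled CPM and FPKM were computed here, with exon lengths of GENCODE vM39 matched by symbol. Genes with at least 2 FPKM in at least 5 of 10 libraries were tested in R 4.3.3 with edgeR 4.0.16 (quasi-likelihood, robust, 3 groups in 1 fit), and p-values were adjusted by Benjamini-Hochberg over 11094 genes. DEGs met 2 limits together, an FDR no higher than 0.05 and a log2 fold change of 1 or more in either direction. DESeq2 1.42.0, other scalings and filters and the omission of each library were alternatives. On simulated data 100 of 100 genes changed 4-fold and 95 of 100 changed 2-fold were called in OVE853 against WT, with 12 false calls. The simulation gave every gene the same dispersion, so it does not show how often changes in genes of wider spread are called. Libraries of a group differed by a chi-square per degree of freedom of at least 12.8, so none was counted as a repeat. P-values measure the spread between pools.

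Members and lists were chosen with earlier results of these data known. Named were all 10 factors, DEGs of the lists (else at most 3 with the largest fold change) and the 3 genes nearest in profile to each factor that passed. Of the regulators that rose in OVE853, 1 is not reported here.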

Additional observations from a re-analysis of the deposited data

Results flagged for a closer look

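Dnajb1, a heat shock cochaperone listed as a target of heat shock factors, differed between the lines by a direct test. It measured 77.3, 61.8 and 65.9 CPM in WT, 49.3, 71.3 and 54.1 in OVE853, and 102, 86.0, 85.7 and 102 in OVE918, so that every OVE918 library exceeded every other library. The log2 fold change of OVE918 against OVE853 was 0.69 (SE 0.14, adjusted p = 0.0458, edgeR quasi-likelihood test), and 0.46 against WT (adjusted p = 0.0406), a call that held in 4 of the 10 fits that left out a library, with adjusted p up to 0.139. The difference between the lines lost the threshold in 7 of the 10 fits that left out a library, with log2 fold changes from 0.59 to 0.86 and adjusted p up to 0.218. Gja1, the connexin of lens epithelium, also differed between the lines, at -0.74 for OVE918 against OVE853 (SE 0.13, adjusted p = 0.0348). That call held in 11 of 20 fits. It was lost with filterByExpr (adjusted p = 0.0515), with the replicate block (adjusted p = 0.0530) and in 7 fits without 1 library, with adjusted p up to 0.152 without OVE853 replicate 3.

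Among 34 named genes, each checked over the 4 OVE918 libraries, 2 had a library standing apart by Dixon's criterion, a ratio of the gap to the range. For Sox2ot the ratio was 0.857, with replicate 2 at 85.8 CPM above the others, and for Cdh1, the epithelial cadherin, it was 0.848, with replicate 2 at 277 CPM above the others. Chance gives about 1 such group in 20. None of the 10 factors had such a library.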

How the results depend on the processing

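The reduction of Six3 in both lines kept its direction and its call in all 20 fits. In OVE853 the number of factors at an FDR of at most 0.05 was 2, and it was 1 with edgeR's filterByExpr, 1 without a filter and 1 with upper-quartile factors, and 4 with DESeq2 (Six3, Sox2, Prox1 and Gata3). Leaving out each library gave 1 to 3 such factors and 0 to 1 DEGs. In OVE918 there were 3 factors and 1 DEG, against 1 and 0 without a filter and 1 and 0 in a fit of only the groups compared, and leaving out each library gave 1 to 5 factors and 0 to 1 DEGs. Between the lines there were 0 of each, against 3 factors and 1 DEG with DESeq2 and 0 to 1 of each without 1 library. The cause of these moves was not tested.

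Replicate numbers did not pair the samples, since same-numbered libraries correlated between -0.30 and 0.08 in their deviations from the group means (9 pairs, 0 above 0.1). With the replicate block OVE853 had 2 factors at the FDR limit and OVE918 had 2 and 0 DEGs, since Hsf4 measured 0.89 there (adjusted p = 0.0539), and its value in OVE853 turned to 0.017. With the block Prox1 between the lines turned to 3.12e-05.

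Some values that did not pass changed sign. Between the lines, the log2 fold changes of Pitx3 and Sox3 were 0.013 and 0.013 with filterByExpr, 0.014 and 0.012 without a filter, 0.011 and 0.0078 with RLE factors, 0.035 and 0.034 with upper-quartile factors, 0.021 and 0.016 in the groups compared alone, and 0.011 and 0.0073 with DESeq2. Without 1 library, log2 fold changes in OVE853 ranged from -0.0092 to 0.059 for Pax6, -0.12 to 0.38 for Sox1, -0.021 to 0.37 for Maf, -0.19 to 0.26 for Hsf4, -0.54 to 1.62 for Hspb1 and -0.49 to 2.80 for Crygd, where OVE853 replicate 2 set the low end for Hspb1 and Crygd. In OVE918 they ranged from -0.35 to 0.030 for Foxe3 and -0.057 to 0.53 for Gata3. Between the lines they ranged from -0.039 to 0.10 for Maf, -0.28 to 0.00235 for Prox1, -0.058 to 0.058 for Pitx3 and -0.15 to 0.15 for Sox3.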
